A study of Mus musculus with 12 samples.

Results

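The genes described are those of glucose and glycogen handling in liver: Slc2a2, Pklr, Pfkl, Pfkfb1, Fbp1, Gys2 and Pygl. They were taken by gene name, and a probe set (the group of short probes on the array that reports 1 transcript) was used where the array annotation gave it that 1 symbol alone. Of the 7 names, 5 had such a probe set (Slc2a2, Pklr, Fbp1, Gys2 and Pygl), with 6 probe sets in all, out of 5856 genes and 8554 probe sets with a single symbol. Pfkl, a phosphofructokinase subunit, and Pfkfb1, the bifunctional enzyme that sets the level of the fructose bisphosphate activator of glycolysis, were not analysed here. Liver mRNA was measured on Affymetrix mouse genome arrays in naive 8-week-old C57BL/6 male mice, with 3 mice of each of 4 genotypes and 1 array for each mouse. Nrf2-null mice lack Nrf2, the transcription factor encoded by Nfe2l2. Keap1-KD mice have less Keap1, the protein that holds Nrf2 down, in the whole body. Keap1-HKO mice come from a cross of Keap1-KD mice with AlbCre+ mice, whose albumin-driven Cre acts in hepatocytes, so that their other liver cells stay in the knockdown background. Wild-type mice carry none of these alleles. Values are log2 intensities, and a gene counts as called when its adjusted p (limma, Benjamini-Hochberg adjustment over the 5856 genes) lies under 0.05.

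The hepatocyte exchanges glucose with blood through GLUT2, the carrier encoded by Slc2a2. After a meal it burns glucose through glycolysis, whose last step is the pyruvate kinase encoded by Pklr, and stores it as glycogen through the glycogen synthase encoded by Gys2. In the fasted state glycogen is broken down by the phosphorylase encoded by Pygl, and new glucose is made through the fructose bisphosphatase encoded by Fbp1.

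The differences that passed the test were those of Pygl and Fbp1 in the genotype without hepatocyte Keap1. Pygl mRNA fell by 26.0% ± 1.09 (SEM, n = 3) in Keap1-HKO against wild-type mice, and it was the 1 gene of the 5 called against wild-type, where 3.94% of all genes were called, a call that ended without any 1 of 10 of the 12 arrays. Against Nrf2-null mice, Pygl and Fbp1 both fell in Keap1-HKO mice, where 9.14% of all genes were called. Over the 4 genotypes together none of the 5 was called by limma. Neither Nrf2-null nor Keap1-KD mice had a called difference from wild-type mice in any of the 5. Slc2a2, Pklr and Gys2 passed no comparison in this fit. In Keap1-HKO against Nrf2-null mice Pklr was called with a replicate block and Gys2 with array quality weights (limma, adjusted p = 0.0237 and 0.0469). Those weights called 1534 of all genes in that comparison.

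The labels and the arrays were checked first. Nfe2l2 lay between 2.29 and 2.46 (log2) in Nrf2-null mice and between 8.81 and 8.94 in wild-type mice, and Keap1 lay between 5.59 and 5.92 in Keap1-KD, between 3.34 and 3.39 in Keap1-HKO and between 7.80 and 7.97 in wild-type mice. Of 10 hepatocyte markers 9 were measured, and Alb stayed between 16.22 and 16.45 on all 12 arrays. Transcripts of exocrine pancreas (11 of 16 listed genes measured) summed to an intensity of 198444 on Keap1-HKO replicate 2 and 26994 on Keap1-HKO replicate 3, while the other 10 arrays lay between 485 and 1310. Skeletal muscle transcripts (9 of 12 genes) summed to 32554 and 12010 on the same pair and to 23972 on Wild-type replicate 2, while the other 9 arrays lay between 59.7 and 99.2. Array medians lay between 8.22 and 8.37. Replicate 1 of the Keap1-HKO and of the Nrf2-null mice lay farthest from the group means, by 0.60 and 0.39 on average over genes.

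**Figure D1:**
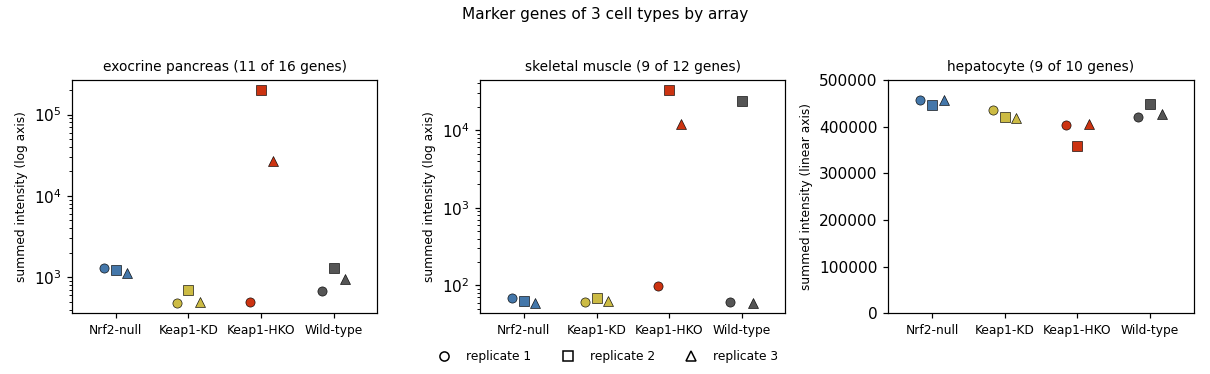
Summed un-logged intensity of marker genes of exocrine pancreas, skeletal muscle (both on a log axis) and hepatocytes (linear axis from 0), 1 point for each of the 12 arrays, with the symbol giving the replicate number. Keap1-HKO replicates 2 and 3 carry pancreas and muscle transcripts and Wild-type replicate 2 muscle transcripts, while the hepatocyte sum of each Keap1-HKO array lies below those of all other arrays.

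The sequences before the transcription start are shown for the pair of genes with a called difference, Pygl and Fbp1, and for Pklr, whose liver promoter is a textbook site of control by carbohydrate. They come from RefSeq (GRCm38.p6), which held an entry for 4 of the 5 measured genes (Gys2 had none) and 2 entries for Pklr, of which the one that starts downstream, within the gene, is shown. The 250 bases before each start were searched on both strands for 5 motifs: the antioxidant response element core TGACNNNGC, to which Nrf2 binds, the E-box CACGTG, the carbohydrate response element (CACGNG and CNCGTG with 5 bases between them), the hepatocyte nuclear factor site (GTTA and TAAC with 5 bases between them) and the TATA box TATAAA. Matches are in capitals in the following sequences, each written 5′ to 3′ on the strand of its gene.
Pygl, chr12:70227684-70227933, minus strand: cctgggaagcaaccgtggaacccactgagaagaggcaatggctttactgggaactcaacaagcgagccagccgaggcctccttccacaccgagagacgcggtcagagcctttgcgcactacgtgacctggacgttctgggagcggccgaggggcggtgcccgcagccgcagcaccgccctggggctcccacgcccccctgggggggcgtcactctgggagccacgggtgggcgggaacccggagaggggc
Fbp1, chr13:62888283-62888532, minus strand: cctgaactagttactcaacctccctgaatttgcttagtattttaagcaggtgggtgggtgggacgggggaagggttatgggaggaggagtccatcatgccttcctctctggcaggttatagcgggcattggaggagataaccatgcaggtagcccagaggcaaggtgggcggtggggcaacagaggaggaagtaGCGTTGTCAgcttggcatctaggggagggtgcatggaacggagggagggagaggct
Pklr, chr3:89136373-89136622, plus strand: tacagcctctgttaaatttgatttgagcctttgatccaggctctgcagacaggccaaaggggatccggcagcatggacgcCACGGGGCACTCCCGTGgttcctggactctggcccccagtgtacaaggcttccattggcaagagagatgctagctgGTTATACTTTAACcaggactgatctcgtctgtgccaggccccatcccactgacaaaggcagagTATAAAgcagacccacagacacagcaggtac

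Fbp1 held 1 match to the antioxidant response element core, on the strand opposite to the gene, from 56 to 48 bases before the start. Of all 32851 RefSeq promoters 10.2% held such a match in a window of that length. The Pklr window held the carbohydrate response element 170 to 154 bases before the start, which 0.0396% of promoters held, the hepatocyte nuclear factor site at 94 to 82 bases (0.307% of promoters) and the TATA box at 31 to 26 bases (12.4%). None of the 5 motifs was found in the windows of Pygl and Slc2a2, nor in the other Pklr entry, and 6.02% of promoters held the E-box. A match is a run of letters only, and binding was not measured.

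Slc2a2 (chromosome 3, 28697903 to 28728361, GRCm38.p6) was read by probe set 1449067_at. Its log2 intensities were 12.90, 12.68 and 12.93 in Nrf2-null mice, 12.88, 12.71 and 13.07 in Keap1-KD mice, 13.04, 12.43 and 12.90 in Keap1-HKO mice and 12.91, 12.69 and 12.72 in wild-type mice. All 4 groups overlapped, and replicate 2 was the lowest array in each of them. The level was 4.84% ± 5.56 above wild-type in Nrf2-null mice, 8.53% ± 7.73 above it in Keap1-KD mice and 2.69% ± 12.5 above it in Keap1-HKO mice (SEM, n = 3 each). The 95% confidence interval of the log2 fold change in Keap1-HKO against wild-type mice ran from −0.37 to 0.41 (limma, adjusted p = 0.955).

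Pklr (chromosome 3, 89136122 to 89146815) had 2 probe sets, of which 1438711_at had the higher mean and was used. It gave 9.58, 8.61 and 8.79 in Nrf2-null mice, 9.26, 8.09 and 8.90 in Keap1-KD mice, 8.73, 7.98 and 7.95 in Keap1-HKO mice and 9.39, 8.22 and 8.35 in wild-type mice. Each genotype spread over more than its distance from the next, and replicate 1 was the highest array in all 4. The second probe set, 1421258_a_at, gave 7.69, 6.89 and 6.74 in Nrf2-null mice, 7.02, 6.31 and 6.83 in Keap1-KD mice, 6.90, 5.22 and 5.96 in Keap1-HKO mice and 7.58, 6.53 and 6.46 in wild-type mice. Here too Keap1-HKO mice had the lowest mean and replicate 1 was the highest array in every genotype, though the Keap1-HKO mean of 73.0 (un-logged) lay under the intensity of 100 that the study took as its limit. Pklr mRNA differed from wild-type by −28.9% ± 13.4 in Keap1-HKO mice (SEM, n = 3) on the probe set used, and the log2 fold change was −0.44 (95% confidence interval −1.35 to 0.48, limma, adjusted p = 0.525). Against Nrf2-null mice the log2 fold change was −0.77 (interval −1.69 to 0.14, limma, adjusted p = 0.322), the widest difference among the 5 genes but without a call. With the replicate number as a block the same difference was called (limma, adjusted p = 0.0237), although the labels do not say that a number marks a shared day or batch.

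Fbp1 (chromosome 13, 62864753 to 62888298) was read by probe set 1448470_at. Its log2 intensities were 15.15, 15.14 and 15.15 in Nrf2-null mice, 14.93, 14.89 and 14.94 in Keap1-KD mice, 14.78, 14.57 and 14.76 in Keap1-HKO mice and 15.05, 14.98 and 14.97 in wild-type mice. No pair of neighbouring genotypes overlapped: Nrf2-null mice were the highest, followed by wild-type, then Keap1-KD, then Keap1-HKO mice. The steps were small, with differences from wild-type of 10.8% ± 0.390 in Nrf2-null mice, −5.45% ± 1.02 in Keap1-KD mice and −18.4% ± 3.74 in Keap1-HKO mice (SEM, n = 3 each).

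The Fbp1 differences from wild-type mice did not pass. The limma standard error was 0.10 for each, from 1 variance over all genotypes that is moderated toward that of all genes. The SD of the Fbp1 arrays was 0.0088 in Nrf2-null, 0.027 in Keap1-KD, 0.12 in Keap1-HKO and 0.045 in wild-type mice. The log2 fold changes (limma) were 0.15 (adjusted p = 0.823) for Nrf2-null, −0.08 (adjusted p = 1) for Keap1-KD and −0.30 (adjusted p = 0.169, unadjusted p = 0.018) for Keap1-HKO mice. An unadjusted limma p under 0.05 was met by 18.6% of all genes in Keap1-HKO against wild-type mice. In Keap1-HKO against Nrf2-null mice Fbp1 fell by 0.44 on the log2 scale (95% confidence interval −0.68 to −0.21, limma, adjusted p = 0.0258). That call ended without Keap1-HKO replicate 2 or 3, Keap1-KD replicate 3, any of the Nrf2-null arrays or Wild-type replicate 3 (adjusted p between 0.0512 and 0.0866), and with the 3 arrays that hold pancreas or muscle transcripts left out together (adjusted p = 0.0569).

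Gys2 (chromosome 6, 142422612 to 142473130) was read by probe set 1424815_at. It gave 9.43, 9.24 and 9.38 in Nrf2-null mice, 9.26, 9.23 and 9.17 in Keap1-KD mice, 9.67, 8.81 and 8.98 in Keap1-HKO mice and 9.44, 9.05 and 9.13 in wild-type mice. The Keap1-HKO arrays held both the highest and the lowest value of the 12, and replicate 1 was again the highest array in every genotype, as it was for 665 of the 5856 genes (11.4%). Glycogen synthase mRNA was 9.85% ± 4.11 above wild-type in Nrf2-null mice and 0.356% ± 1.80 above it in Keap1-KD mice, and changed by −1.11% ± 19.0 in Keap1-HKO mice (SEM, n = 3 each). The log2 fold change in Keap1-HKO against wild-type mice was −0.06, with a 95% confidence interval from −0.51 to 0.40 (limma, adjusted p = 0.875). Against Nrf2-null mice Gys2 was called with array quality weights alone (log2 fold change −0.38, limma, adjusted p = 0.0469). That setting called 1534 of the 5856 genes in this comparison, and it gave Keap1-HKO replicate 1, the highest Gys2 array, a weight of 0.0553. Without the 3 arrays that hold pancreas or muscle transcripts the log2 fold change was 0.32.

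Pygl (chromosome 12, 70190815 to 70227683) was read by probe set 1417741_at. Its log2 intensities were 13.50, 13.64 and 13.57 in Nrf2-null mice, 13.50, 13.45 and 13.40 in Keap1-KD mice, 13.10, 13.14 and 13.17 in Keap1-HKO mice and 13.56, 13.58 and 13.58 in wild-type mice. The Keap1-HKO arrays lay below all 9 others, the Keap1-KD arrays below the wild-type arrays, and the Nrf2-null arrays on both sides of wild-type. The SD within a genotype was between 0.01 and 0.07 on the log2 scale.

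**Figure D2:**
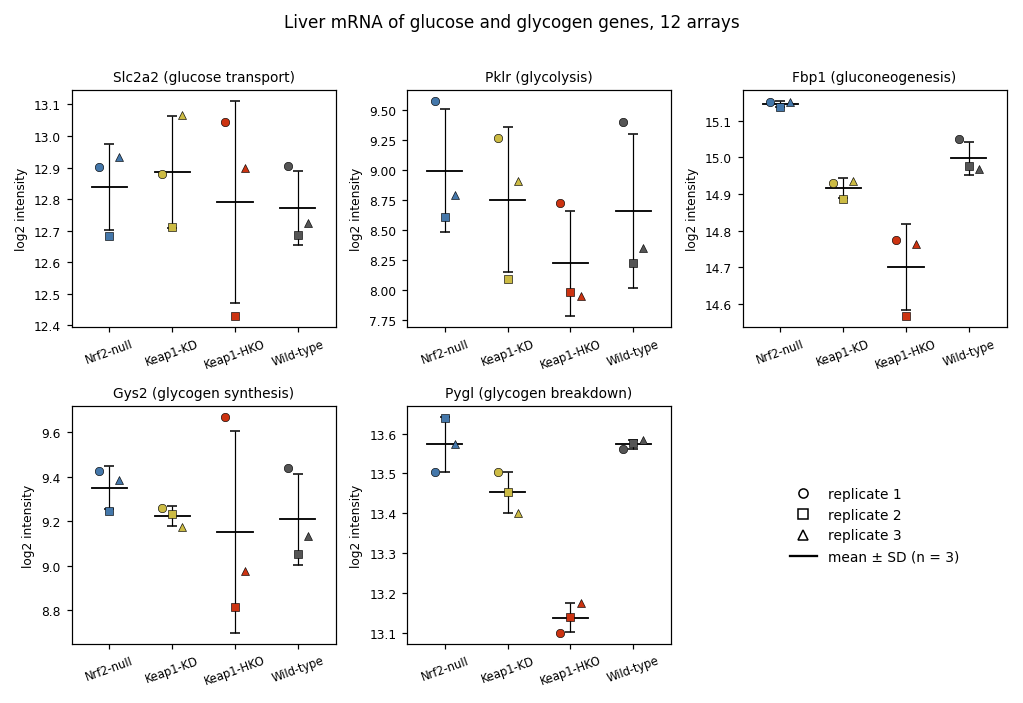
Log2 intensity of the 5 genes on each of the 12 arrays (y axes differ between panels), with genotypes on the x axis, symbols for the replicate number, and the mean ± SD of 3 arrays as lines. Pygl of the Keap1-HKO arrays (13.10 to 13.17) and Fbp1 of the same arrays (14.57 to 14.78) lie below every other array, while the genotypes overlap for Slc2a2, Pklr and Gys2.

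In Keap1-HKO against wild-type mice Pygl fell by 0.43 on the log2 scale (standard error 0.10, 95% confidence interval −0.66 to −0.21, limma, adjusted p = 0.0395). It was the 1 called gene of the 5, beside 3.94% of all genes called, with 1.84% called lower. Fbp1 and Pygl, 2 of the 5, had every Keap1-HKO array below every wild-type array, as had 14.9% of all genes. The median log2 fold change was −0.30 over the 5 genes and −0.01 over all genes. The RNA came from whole liver, where fewer hepatocytes and less mRNA per hepatocyte cannot be told apart.

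The summed hepatocyte markers lay between 359076 and 406345 in Keap1-HKO mice and between 419858 and 447249 in wild-type mice, a change of −9.72% in the mean, and 1 of the 9 markers, the fibrinogen gene Fgb, was called lower (log2 fold change −0.46, limma, adjusted p = 0.0497). Of the other 8 markers, 4 lay below wild-type (Apoa1, Cps1, Tat and Hpd, log2 fold changes between −0.56 and −0.18) and 4 above it (Alb, Ttr, Serpina1c and Ass1, between 0.01 and 0.36), none of them called. The part of this shift in the Pygl and Fbp1 values was not tested. The lowest Pygl value, 13.10, was that of Keap1-HKO replicate 1, whose pancreas and muscle sums were 495 and 99.2. The lowest Fbp1 value, 14.57, was that of Keap1-HKO replicate 2, whose pancreas and muscle sums were 198444 and 32554. With the 3 arrays that hold pancreas or muscle transcripts left out, which leaves 1 Keap1-HKO array that is assumed to vary like the other genotypes, the Pygl log2 fold change was −0.47 (limma, adjusted p = 0.0374). In that fit 2255 of the 5856 genes were called, and the unadjusted p of Pygl was 0.0114, against 0.00139 with all arrays. The part of pancreas and muscle RNA in the Pygl and Fbp1 values was not tested.

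The Pygl call rested on most of the arrays. It was kept with Keap1-HKO replicate 1 or with Nrf2-null replicate 1 left out, and it ended when any 1 of the other 10 was left out (limma, adjusted p between 0.0628 and 0.163). The log2 fold change stayed between −0.45 and −0.42 in all 12 of these fits. It also ended with arrays centred on the median (adjusted p = 0.0787) and with only the compared genotypes in the fit (adjusted p = 0.276). Fbp1 joined Pygl with a variance trend, with array weights, or with replicate 1 of both the Keap1-HKO and the Nrf2-null mice left out (adjusted p = 0.0254, 0.0268 and 0.0485).

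In Nrf2-null against wild-type mice 0 of the 5 genes was called by limma, beside 0.41% of all genes, and 0 had an unadjusted p under 0.05, as had 6.92% of all genes. Fbp1 was the 1 gene of the 5 with all Nrf2-null arrays above wild-type, as were 12.1% of all genes. The median log2 fold change was 0.14 over the 5 genes and 0.02 over all. The 95% confidence interval of the Pygl log2 fold change ran from −0.22 to 0.22.

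In Keap1-KD against wild-type mice 0 of the 5 was called by limma, beside 0.0683% of all genes, and 0 had an unadjusted p under 0.05, as had 2.54% of all genes. Fbp1 and Pygl had all Keap1-KD arrays below wild-type, 2 of the 5, as had 8.21% of all genes. Pygl differed from wild-type by −7.96% ± 1.88 (SEM, n = 3), with a log2 fold change of −0.12 (95% confidence interval −0.34 to 0.10, limma, adjusted p = 1). The medians were 0.01 over the 5 genes and −0.01 over all.

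In Keap1-HKO against Keap1-KD mice, which asks what the loss of Keap1 in hepatocytes adds to the knockdown, 0 of the 5 was called by limma, beside 1.43% of all genes. Pygl was −0.31 on the log2 scale (95% confidence interval −0.54 to −0.09, limma, adjusted p = 0.207) and the 1 gene of the 5 with an unadjusted p under 0.05, as had 12.8% of all genes. Fbp1 was −0.21 (interval −0.45 to 0.02, limma, adjusted p = 0.422). Both had all Keap1-HKO arrays below all Keap1-KD arrays, as had 9.48% of all genes. The medians were −0.21 over the 5 genes and −0.00 over all.

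Keap1-HKO against Nrf2-null mice sets the ends of the model against each other. Fbp1 and Pygl were called, 2 of the 5, beside 9.14% of all genes called and 4.63% called lower. Both had every Keap1-HKO array below every Nrf2-null array, as had 11.1% of all genes. Pygl fell by 0.43 on the log2 scale (95% confidence interval −0.66 to −0.21, limma, adjusted p = 0.0236), and Fbp1 by the 0.44 given above. The medians were −0.43 over the 5 genes and −0.05 over all. The Pygl call ended without Keap1-HKO replicate 3, Nrf2-null replicate 2 or 3 or Wild-type replicate 3 (limma, adjusted p between 0.0506 and 0.0942). The hepatocyte markers Apoa1, Tat and Fgb, 3 of 9, were also called lower here, and their part in these values was not tested.

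**Figure D3:**
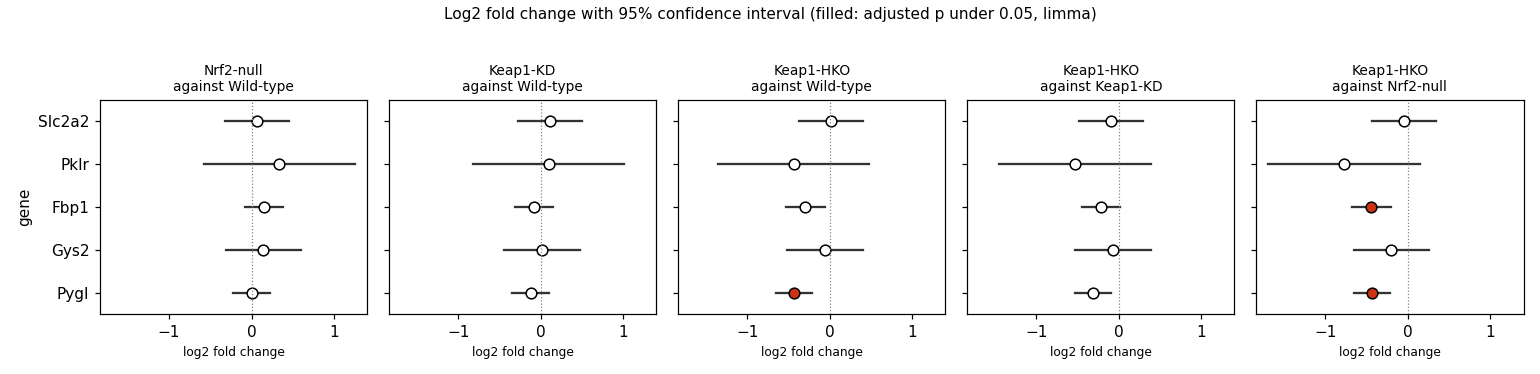
Log2 fold change of the 5 genes (points) with 95% confidence intervals (lines) in 5 comparisons, the first genotype over the second, from 1 limma fit over the 12 arrays. Filled points, with an adjusted p under 0.05, are Pygl in Keap1-HKO against wild-type and Fbp1 and Pygl in Keap1-HKO against Nrf2-null mice.

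The comparisons against wild-type share the same 3 wild-type arrays. Over the 4 genotypes together (moderated F, limma) 0 of the 5 genes was called, beside 4.83% of all genes, with an adjusted p of 0.0711 for Pygl and 0.132 for Fbp1. The Duncan's multiple range test of the study's methods, which adjusts nothing over genes, separated more. It set Fbp1 and Pygl of Keap1-HKO mice apart from each other genotype. It also set Fbp1 of Nrf2-null mice above wild-type and Pygl of Keap1-KD mice below it. The test was run on the 5 genes alone, so no share over all genes can be set beside it. An unadjusted limma p under 0.05 was met by 18.6% of all genes in Keap1-HKO against wild-type mice and by 22.1% against Nrf2-null mice.

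Over the 12 arrays, which are 4 genotypes of 3 and so not 12 like samples, Fbp1 and Pygl moved together with a Pearson's r of 0.86, and of 0.91 without replicate 1 of the Keap1-HKO and of the Nrf2-null mice. Gys2 and Pygl gave 0.15 over 12 arrays and 0.75 over those 10, so that this value depends on the pair left out. Pklr and Gys2 gave 0.68, Gys2 and Slc2a2 0.68, and Pygl and Slc2a2 −0.04. Among all 5856 genes the 3 most like Pygl were Mfhas1 (r of 0.97), Clcc1 (0.95) and Keap1 (0.95), and the 3 most like Fbp1 were Cbs (0.97), 1810008I18Rik (0.97) and Gm2788 (0.95). Nearest to Pklr were Dag1 (0.88), Slco2a1 (0.88) and Fasn (0.86), nearest to Gys2 were Pigyl (0.95), Rtf2 (0.94) and Pigx (0.93), and nearest to Slc2a2 were Zfp467 (0.90), Pgk1 (0.86) and Bcar1 (0.84). These values describe arrays that also share genotype, and carry no test.

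The neighbours of the 5 genes in glucose metabolism were taken from lists made by function, which were chosen with earlier results of these data known. Of 29 further genes of glycogen metabolism 16 were measured, and in Keap1-HKO against wild-type mice 2 rose and 1 fell, where 2.1% of all genes were called higher and 1.84% lower. Of 9 genes of the pentose phosphate pathway 6 were measured, and 2 rose and 0 fell. No gene was called in this comparison among 11 measured genes of glycolysis, 11 of gluconeogenesis and 5 of fructose and galactose entry. Nor was any called among 2 further glucose transporters, 10 genes of pyruvate dehydrogenase and its kinases and 22 regulators of glucose metabolism. The polyol genes listed with fructose and galactose entry, Sord and Akr1b3, were not among the measured genes. The study reported Akr1b3 mRNA as increased in Keap1-HKO over wild-type mice. In Nrf2-null and in Keap1-KD mice 0 genes of these lists were called against wild-type, beside 0.41% and 0.0683% of all genes. With the 3 arrays that hold pancreas or muscle transcripts left out, 6 glycogen genes rose and 3 fell and 4 pentose phosphate genes rose in Keap1-HKO against wild-type mice. Of the other lists, glycolysis had 3 genes called higher, gluconeogenesis 1, the glucose transporters 1 and the regulators 2, while 1 gene of pyruvate dehydrogenase and its kinases and 4 regulators were called lower. In that fit 2255 of all genes were called, with Keap1-HKO replicate 1, the array farthest from its group, as the 1 Keap1-HKO array left.

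Ppp1r3b, which encodes the liver subunit that brings protein phosphatase 1 to glycogen and so turns on glycogen synthase and off phosphorylase, had log2 intensities of 10.95, 10.48 and 11.39 in Nrf2-null mice, 10.45, 10.45 and 10.16 in Keap1-KD mice, 8.98, 9.32 and 9.25 in Keap1-HKO mice and 10.97, 10.52 and 10.36 in wild-type mice. All Keap1-HKO arrays were below all others. It fell by 1.43 on the log2 scale in Keap1-HKO against wild-type mice (standard error 0.24, limma, adjusted p = 0.00849), and it was also lower than in Keap1-KD mice (log2 fold change −1.17, limma, adjusted p = 0.0428) and in Nrf2-null mice (−1.76, adjusted p = 0.00127). The call against wild-type was kept without any 1 of the 12 arrays (adjusted p between 0.00588 and 0.036) and ended with only the compared genotypes in the fit (adjusted p = 0.056), while that against Keap1-KD mice ended without any 1 of 10 of them, all but Nrf2-null replicates 2 and 3 (adjusted p between 0.0511 and 0.167).

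Gbe1, which encodes the glycogen branching enzyme, ran the other way. It gave 9.35, 9.75 and 9.68 in Nrf2-null mice, 10.85, 10.31 and 10.75 in Keap1-KD mice, 11.22, 11.81 and 11.71 in Keap1-HKO mice and 10.44, 9.91 and 10.16 in wild-type mice. The Nrf2-null arrays were the lowest and the Keap1-HKO arrays the highest, with Keap1-KD overlapping wild-type. In the Keap1-HKO group Gbe1 was 167% above wild-type. The log2 difference was 1.41 (limma, adjusted p = 0.00585), and it was 1.99 above Nrf2-null mice on the log2 scale (limma, adjusted p = 0.000325). Against wild-type the call was kept without any 1 of the 12 arrays and ended with only the compared genotypes in the fit (adjusted p = 0.0796), and without the 3 arrays that hold pancreas or muscle transcripts the difference was 0.92 (adjusted p = 0.04).

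Pgm1, a phosphoglucomutase that links glucose phosphate with glycogen, was 11.73, 11.20 and 11.39 in Keap1-HKO mice and 10.86, 10.58 and 10.80 in wild-type mice. The groups did not overlap, and the log2 fold change was 0.69 (limma, adjusted p = 0.0389), a call that ended without any 1 of 10 arrays (all but Keap1-HKO replicate 2 and Nrf2-null replicate 1, adjusted p between 0.0579 and 0.17). Gyg, which encodes glycogenin, the primer of glycogen, and Ppp1r3c, another phosphatase targeting subunit, were called higher in Keap1-HKO against Nrf2-null mice and in no other comparison (log2 fold changes of 1.19 and 2.12, limma, adjusted p = 0.0327 and 0.0324). Gyg was 7.88 on Keap1-HKO replicate 1, 7.85 on replicate 3 and higher than both on replicate 2, and 7.81 on Wild-type replicate 2 against 6.75 and 6.79 on the other wild-type arrays, so that it was also high on an array whose muscle sum was high. The part of muscle RNA was not tested, and Keap1-HKO replicate 1, at 7.88, had a muscle sum of 99.2. Without the 3 arrays that hold pancreas or muscle transcripts the Gyg log2 fold change against Nrf2-null mice was 1.06. The Gyg call ended without any 1 of 7 arrays (Keap1-HKO replicates 2 and 3, the Keap1-KD arrays, and Nrf2-null replicates 2 and 3, adjusted p between 0.0508 and 0.122), and the Ppp1r3c call without any 1 of 5 (Keap1-HKO replicate 3, Nrf2-null replicate 2 and the wild-type arrays, adjusted p between 0.0514 and 0.1) and also without the 3 arrays that hold pancreas or muscle transcripts (adjusted p = 0.0934).

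The pentose phosphate enzymes Pgd and Tkt rose in Keap1-HKO mice. Pgd, a phosphogluconate dehydrogenase that makes NADPH, was 343% above wild-type (log2 fold change 2.13, limma, adjusted p = 0.00275), with 12.65, 12.12 and 12.06 in Keap1-HKO mice against 10.31, 9.91 and 10.20 in wild-type mice. Tkt, the transketolase, was 93.3% above wild-type (log2 fold change 0.95, limma, adjusted p = 0.0128), with 14.74, 14.38 and 14.58 against 13.85, 13.44 and 13.55. For both, every Keap1-HKO array lay above all 9 others, and the Tkt call ended without Wild-type replicate 2 or 3 (adjusted p = 0.0672 and 0.0677).

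**Figure D4:**
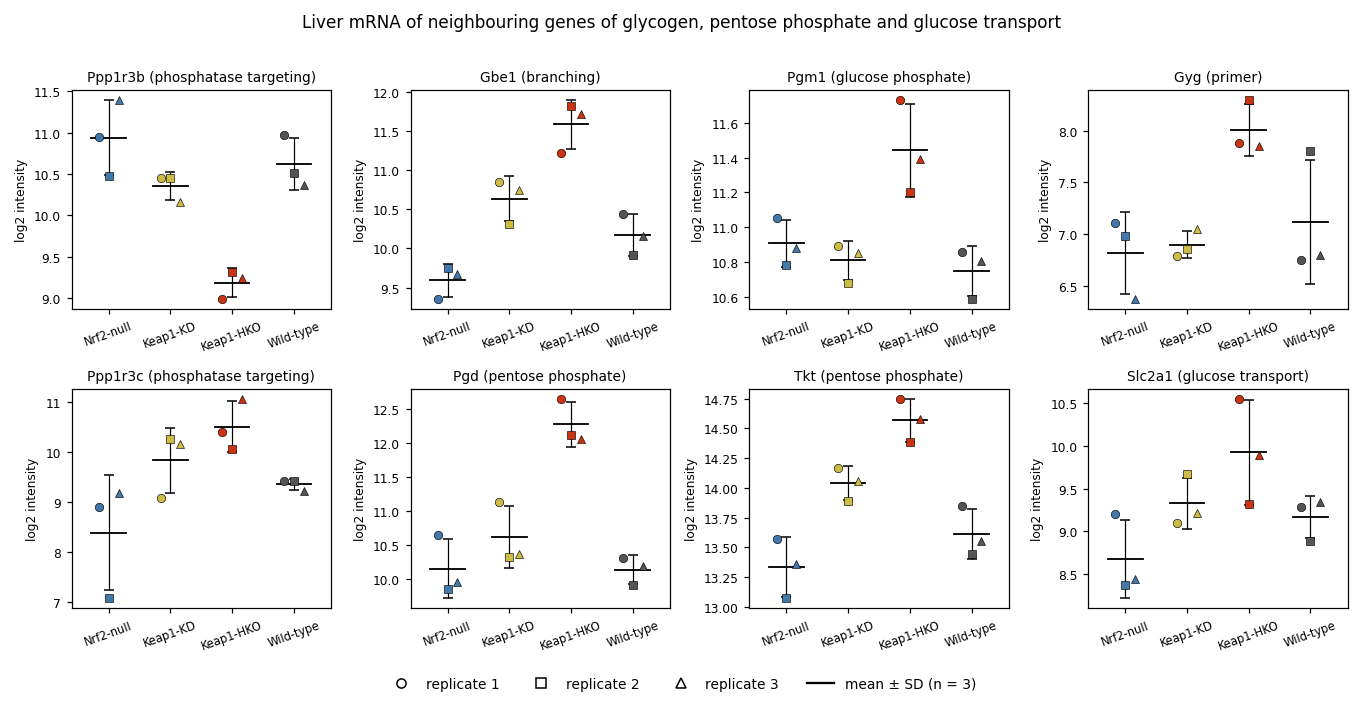
Log2 intensity of 8 further genes of glycogen metabolism, the pentose phosphate pathway and glucose transport on each of the 12 arrays, with symbols for the replicate number and the mean ± SD of 3 arrays as lines (y axes differ between panels). Ppp1r3b of Keap1-HKO mice lies below, and Gbe1, Pgm1, Gyg, Pgd and Tkt above, all other arrays. For Gyg the margin is narrow, with 7.85 on Keap1-HKO replicate 3 and 7.81 on Wild-type replicate 2. Ppp1r3c and Slc2a1 overlap between Keap1-HKO and Keap1-KD mice.

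Against Nrf2-null mice the glycolysis list had 1 gene called higher and 1 lower of 11 in Keap1-HKO mice. Of all genes 4.51% were called higher and 4.63% lower there. The glycogen list had 3 called higher and 1 lower of 16, and the pentose phosphate list 2 higher of 6. Of 2 further glucose transporters 1 was called higher, and of 22 regulators 1. Aldoa, an aldolase also abundant in muscle, was 11.14, 11.59 and 10.97 in Keap1-HKO and 10.19, 9.75 and 9.98 in Nrf2-null mice (log2 fold change 1.26, limma, adjusted p = 0.0347). It was 10.97 on the muscle-bearing Wild-type replicate 2. Without the 3 arrays that hold pancreas or muscle transcripts the Aldoa log2 fold change against Nrf2-null mice was 1.17, and the part of muscle RNA was not tested. Ldha, a lactate dehydrogenase subunit, was 12.66, 12.18 and 12.26 in Keap1-HKO and 13.14, 13.03 and 13.12 in Nrf2-null mice (log2 fold change −0.73, limma, adjusted p = 0.011). Slc2a1, the glucose carrier GLUT1, was 10.55, 9.32 and 9.90 in Keap1-HKO and 9.20, 8.37 and 8.44 in Nrf2-null mice (log2 fold change 1.25, limma, adjusted p = 0.0404). Slc2a2 was at −0.05 in the same comparison (95% confidence interval −0.44 to 0.34, adjusted p = 0.924), and at 0.13 without Keap1-HKO replicate 2. Txnip, which encodes a thioredoxin-binding protein that limits glucose uptake, was 0.62 higher on the log2 scale (limma, adjusted p = 0.032). Of these calls, that of Ldha was kept without any 1 of the 12 arrays and ended without the 3 arrays that hold pancreas or muscle transcripts (log2 fold change −0.44, adjusted p = 0.0658). Without those 3 arrays the Txnip call also ended (adjusted p = 0.0506), and the Slc2a1 log2 fold change was 1.88 (adjusted p = 0.0129). The Aldoa call ended without any 1 of 7 arrays (Keap1-HKO, Keap1-KD and Nrf2-null replicates 2 and 3, and Nrf2-null replicate 1), the Slc2a1 call without any 1 of 10 (all but Keap1-HKO replicate 2 and Nrf2-null replicate 1), and the Txnip call without any 1 of 6 (Keap1-HKO replicates 2 and 3, and Nrf2-null and wild-type replicates 1 and 3).

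No gene of the gluconeogenesis list was called in Keap1-HKO against Nrf2-null mice either. An unadjusted limma p under 0.05 was met there by 22.1% of all genes, and by 6.92% in Nrf2-null against wild-type mice. Of the 11 measured genes of the list, 3 were lower and 1 was higher at that limit in Keap1-HKO against Nrf2-null mice. The higher one was Pcx (log2 fold change 0.55, limma, unadjusted p = 0.0159, adjusted p = 0.111). The lowest adjusted p of the list in any comparison was that of Gpt2 in Keap1-HKO against wild-type mice (log2 fold change −0.69, limma, adjusted p = 0.074). G6pc, the glucose phosphatase subunit that releases free glucose, had a log2 fold change of −1.39 in Keap1-HKO against Nrf2-null mice (limma, unadjusted p = 0.023, adjusted p = 0.143). It was 1.21 in Nrf2-null against wild-type mice (unadjusted p = 0.0423, adjusted p = 0.685) and −0.18 in Keap1-HKO against wild-type mice (adjusted p = 0.836). Pck1, the carboxykinase at the entry to gluconeogenesis, gave −0.41 (limma, adjusted p = 0.392), 0.55 (unadjusted p = 0.0499, adjusted p = 0.714) and 0.14 (adjusted p = 0.73) in the same 3 comparisons.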

How the data were processed

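Total liver RNA of 12 mice was hybridised to 1 array each, and the deposited table holds log2 intensities that the authors made in R with the affy package and gcRMA (background correction, quantile normalization and summary per probe set, then log2). Per the methods, the authors dropped probe sets that did not pass 100 in any group, and 9622 remained in the table. Scanner files were not used. Gene names came from the platform annotation: 8554 probe sets had 1 symbol, 371 several and 697 none, and only the first kind was used. Where a gene had several, the probe set with the highest mean stood for it (5856 genes).

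All genotypes entered 1 limma model (version 3.58.1, R 4.3.3, with lmFit and eBayes) that had 8 residual degrees of freedom and 2.19 prior ones, and each comparison's p-values received the Benjamini-Hochberg adjustment over all genes. Percent changes compare mean un-logged intensities, with the SEM of the first genotype alone. The number of arrays, 3 per genotype, limits the precision. The fit was tested on simulated data with known changes.

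Besides the 5 measured genes and the check of Nfe2l2 and Keap1, the text names the called genes of 8 lists of glucose metabolism, the 3 genes most like each of the 5 by Pearson's r, and markers of hepatocytes. G6pc, Pck1, Pcx, Gpt2 and the individual hepatocyte markers were named after their values were seen. The genes, lists and tests were chosen with earlier results of these data known. Motifs were searched with Python 3.11.15 in RefSeq promoters (GRCm38.p6). Alternatives were other probe set choices, filters, scalings, variance models, array weights, a replicate block, Duncan's multiple range test and arrays left out. Leaving out the 3 arrays that hold pancreas or muscle transcripts was added after seeing the data.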

Additional observations from a re-analysis of the deposited data

How the results depend on the processing

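Over the alternatives, the log2 fold change of Pygl in Keap1-HKO against wild-type mice stayed between −0.45 and −0.39 or, with the 3 arrays that hold pancreas or muscle transcripts left out, at −0.47, and that of Fbp1 in Keap1-HKO against Nrf2-null mice between −0.48 and −0.37, with adjusted p (limma) of 0.00188 to 0.276 and of 0.00133 to 0.307. The counts of the 5 genes called moved as follows. In Keap1-HKO against wild-type mice the count of 1 became 0 with arrays centred on the median or with only the 2 compared genotypes fitted, and 2 with a variance trend, array quality weights, replicate 1 of both the Keap1-HKO and the Nrf2-null mice left out, or Duncan's multiple range test on log2 or un-logged values. It was from 0 to 1 with each array left out in turn. In Keap1-HKO against Nrf2-null mice the count of 2 became 1 with centring on the median and without the 3 arrays with pancreas or muscle transcripts, 0 with the 2 genotypes alone, 0 to 2 with each array left out, and 3 with the replicate block, which added Pklr, or with array weights, which added Gys2 (adjusted p = 0.0469). In Keap1-HKO against Keap1-KD mice the count of 0 became 1 with array weights and 2 with Duncan's test on either scale, which also gave 1 in Nrf2-null and 1 in Keap1-KD mice against wild-type, where the count was 0. For these comparisons it was 0 with each array left out. Duncan's test was run on the 5 genes alone, so its counts have no share over all genes beside them. The count of 0 for the moderated F became 1 with a filter at an intensity of 200, and 2 with a variance trend, array weights, the pair of arrays left out, or Duncan's overall test on either scale, and was 0 with each array left out.

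Directions turned only among fold changes that passed no test in the main fit or in the setting that turned them. Gys2 in Keap1-HKO against Nrf2-null mice, 1 of these, was called lower in another setting, array quality weights (log2 fold change −0.38). For Pygl in Nrf2-null against wild-type mice the log2 fold change of −0.00058 became 0.017 with centring, 0.020 with array weights, 0.034 without replicate 1 of the Nrf2-null and the Keap1-HKO mice, and 0.00035 without the 3 arrays, and ran from −0.034 to 0.034 with each array left out in turn. For Pklr in Keap1-KD mice 0.10 became −0.020 with the mean of probe sets and −0.12 without the 3 arrays, and ran from −0.16 to 0.46 with each left out. For Gys2 in Keap1-KD mice 0.014 became −0.063 without the 3 arrays (−0.063 to 0.13 with each left out). For Gys2 in Keap1-HKO mice the value without the 3 arrays was 0.38 against wild-type (−0.31 to 0.11 with each left out), 0.44 against Keap1-KD (−0.33 to 0.099) and 0.32 against Nrf2-null mice, where each left out kept the sign. For Slc2a2 in Keap1-HKO against wild-type mice 0.019 became −0.00096 after a second quantile normalization and −0.11 without the same pair of replicates 1, and ran from −0.11 to 0.20 with each array left out. Without the 3 arrays it was 0.16 against Keap1-KD (−0.22 to 0.085 with each left out) and 0.20 against Nrf2-null mice (−0.18 to 0.13). The cause was not tested. With only the 2 compared genotypes fitted, the calls of Ppp1r3b, Gbe1, Pgm1 and Tkt in Keap1-HKO against wild-type mice ended (adjusted p of 0.056, 0.0796, 0.23 and 0.102), as did those of Aldoa, Ldha, Gyg, Ppp1r3c, Slc2a1, Tkt and Txnip against Nrf2-null mice (0.0524 to 0.247).

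Of all genes 231 were called in Keap1-HKO against wild-type mice, with 49 to 2255 over the alternatives, 24 in Nrf2-null mice (12 to 278), 4 in Keap1-KD mice (0 to 40), 84 in Keap1-HKO against Keap1-KD mice (21 to 2419), 535 in Keap1-HKO against Nrf2-null mice (110 to 1837) and 283 by the moderated F (179 to 1323). The highest counts came with array weights or without the 3 arrays, which leaves 1 Keap1-HKO array. Samples with the same replicate number correlated in their deviations from the genotype means with r between −0.16 and 0.79, over 0.1 for 15 of 18 pairs, and 10 of 12 arrays correlated best with an array of their own number, as a hint from the data. With the replicate block 381 genes were called in Keap1-HKO and 44 in Nrf2-null against wild-type mice, and Pklr was called in Keap1-HKO against Nrf2-null mice, with a log2 fold change of −0.77 (limma, adjusted p = 0.0237). The block changed no other call of the 5 genes, and it ended that of Ppp1r3b against Keap1-KD mice (adjusted p = 0.0598). Against wild-type, the moderated limma standard error was 0.41 for Pklr and 0.10 for Pygl.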
